A study of Mus musculus with 6 samples.

Results

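The genes described here are 38 mouse genes of the integrated stress response that runs through the transcription factor ATF4, and of linked metabolism. The latter are mainly enzymes of serine synthesis and folate one-carbon metabolism, and the same pathway is known to govern some of them. All 38 were chosen by name for their place in the pathway, with results of these arrays already known. The counts and tests on them therefore describe these pools and are no independent evidence that the pathway changed. Of the 38 genes, 37 were measured, among 21800 entries tested on the array, of which 15233 carried a gene symbol. Pycr1, a proline synthesis enzyme, had no probe that could be matched to a symbol.

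The study compared hearts of wild-type and Arid3b-null mouse embryos at embryonic day 9.5. Arid3b encodes a protein that binds AT-rich DNA. Each group had 3 pools, each pool held tissue from 4 embryos, and the dissected tissue was the heart tube with the pharyngeal endoderm and mesoderm beneath it. The labels give no strain, sex, allele or treatment, and nothing says whether pools shared litters. RNA from each pool was hybridised to 1 single-colour Agilent array.

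Cells under stress phosphorylate the translation factor eIF2, which slows protein synthesis in general and raises translation of a few messages, ATF4 among them. ATF4 then pairs with C/EBP-family and related proteins to switch on genes for amino acid import and synthesis, for tRNA charging and for stress signalling, and DDIT3, TRIB3 and PPP1R15A belong to its later arms. Serine made from glycolytic intermediates supplies glycine and one-carbon units carried on folate, through matching sets of enzymes in the mitochondria and the cytosol.

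The DNA site that ATF4 and a C/EBP partner recognise together is the C/EBP-ATF response element, and the letters TGATGNAA (N is any base) were searched for on both strands of RefSeq promoter windows of 300 bases, 250 before and 50 after each transcription start, on build GRCm38.p6. Windows were found for 34 of the 38 genes, with none in the table for Ppp1r15b, Eif4ebp1, Aldh1l2 and Cth. The letters occurred in 8 of the 34 genes (23.5%), against 1219 of 27025 genes with a window in the table (4.51%). The 27025 include genes not tested on the array, and among tested genes 354 held the letters and 11720 did not. The list was chosen for the ATF4 pathway, so its higher share is no independent evidence. Some genes have several windows, and counted by window 8 of the 40 of the listed genes held the letters (20%), against 1304 of 32851 (3.97%). The match lies in 1 of 3 windows of Jdp2 and in 1 of 2 of Vldlr. The 8 stretches are printed because they are the matches found in the listed genes, each 30 bases in the direction of the gene, with the matched letters in capitals (TTNCATCA is the same motif on the other strand).
Jdp2, chr12:85599372-85599401, plus strand: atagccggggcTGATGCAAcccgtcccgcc
Nupr1, chr7:126625562-126625591, minus strand: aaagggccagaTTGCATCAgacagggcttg
Trib3, chr2:152344028-152344057, minus strand: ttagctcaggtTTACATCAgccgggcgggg
Chac1, chr2:119351038-119351067, plus strand: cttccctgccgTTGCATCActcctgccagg
Vldlr, chr19:27216809-27216838, plus strand: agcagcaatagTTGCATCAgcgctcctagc
Asns, chr6:7693214-7693243, minus strand: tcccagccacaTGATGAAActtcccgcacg
Pycr1, chr11:120643833-120643862, minus strand: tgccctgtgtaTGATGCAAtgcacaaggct
Pck2, chr14:55540152-55540181, plus strand: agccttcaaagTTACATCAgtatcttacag
The match began 23 bases before the start in Asns and 33 in Jdp2, and 14 bases after the start in Trib3. In the other 5 genes it lay between 103 and 200 bases before the start. A match describes the letters only, and a window without one says nothing about binding.

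Chac1 had the largest change among the 37 measured genes, so the 250 bases before its start are given in full (chr2:119350992-119351241, plus strand), with the same 8 letters in capitals.
Chac1 upstream: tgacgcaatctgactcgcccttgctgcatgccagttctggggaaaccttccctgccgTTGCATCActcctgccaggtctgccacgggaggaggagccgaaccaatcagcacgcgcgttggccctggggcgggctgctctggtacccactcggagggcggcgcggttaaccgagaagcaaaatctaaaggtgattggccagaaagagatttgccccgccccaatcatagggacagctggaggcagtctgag

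Levels below are log2 intensities relative to the 75th percentile of the array, so a level of 0 lies at that percentile, and they compare 1 gene between pools but not different genes. Values are given for wild-type pools 1, 2 and 3 and then for null pools 1, 2 and 3, and changes are null minus wild type with the standard error (SE) of the fit. Called genes have a Benjamini-Hochberg adjusted p under 0.05 in limma over all 21800 entries. Arid3b itself stood at 2.91, 3.4 and 3.69 in wild type and at 1.07, 0.52 and 0.45 in null, 6.28-fold lower (limma adjusted p = 0.00192). No source used here says whether its probe lies within the deleted part.

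Of the 37 measured genes, 21 were called higher in null hearts, 1 was called lower and 15 were not called. Over all entries tested, 6.6% were called higher and 3.83% lower. The median change of the 37 was 0.87 (log2), and that of all entries was 0.03. In 26 of the 37 every null pool lay above every wild-type pool, and in 3 every null pool lay below, where all entries gave 18% and 15%. In pooled tissue, more cells of a type and more RNA per cell cannot be told apart. When arrays were centred on their median in place of the 75th percentile, the median of all entries moved to -0.11, and 18 of the listed genes were called higher and 2 lower. That centring turned the split over all entries from 1439 higher and 834 lower to 1093 higher and 1435 lower.

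On the same arrays 9 of 10 hypoxia targets and all 6 megakaryocyte and platelet markers were called higher, and null pool 3 stood apart by a high level of the placental hormone Prl3d1. Counts and summed levels of these marker lists are given further below, and their part in the changes of the listed genes was not tested. Without null pool 3, 15 of the listed genes were called higher, and 3.49% of all entries (6.6% with all pools).

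Each numbered wild-type pool shared a slide with the null pool of the same number. Within slides, the 21 genes called higher differed by 0.32 to 5 (log2), and the gene called lower by -1.06 to -0.46. In each of these genes the groups did not overlap, so the direction within slides was already fixed and adds no evidence. With slide as a block, 12 were called higher and none lower, where all entries gave 2.44% and 0.913%. The 12 were Atf5, Ddit3, Cebpb, Nupr1, Trib3, Chac1, Ddit4, Sesn2, Vldlr, Aldh1l2, Asns and Gpt2. The wild-type array always held the same place on the slide and the null array the next, so place and genotype cannot be told apart.

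**Figure D1:**
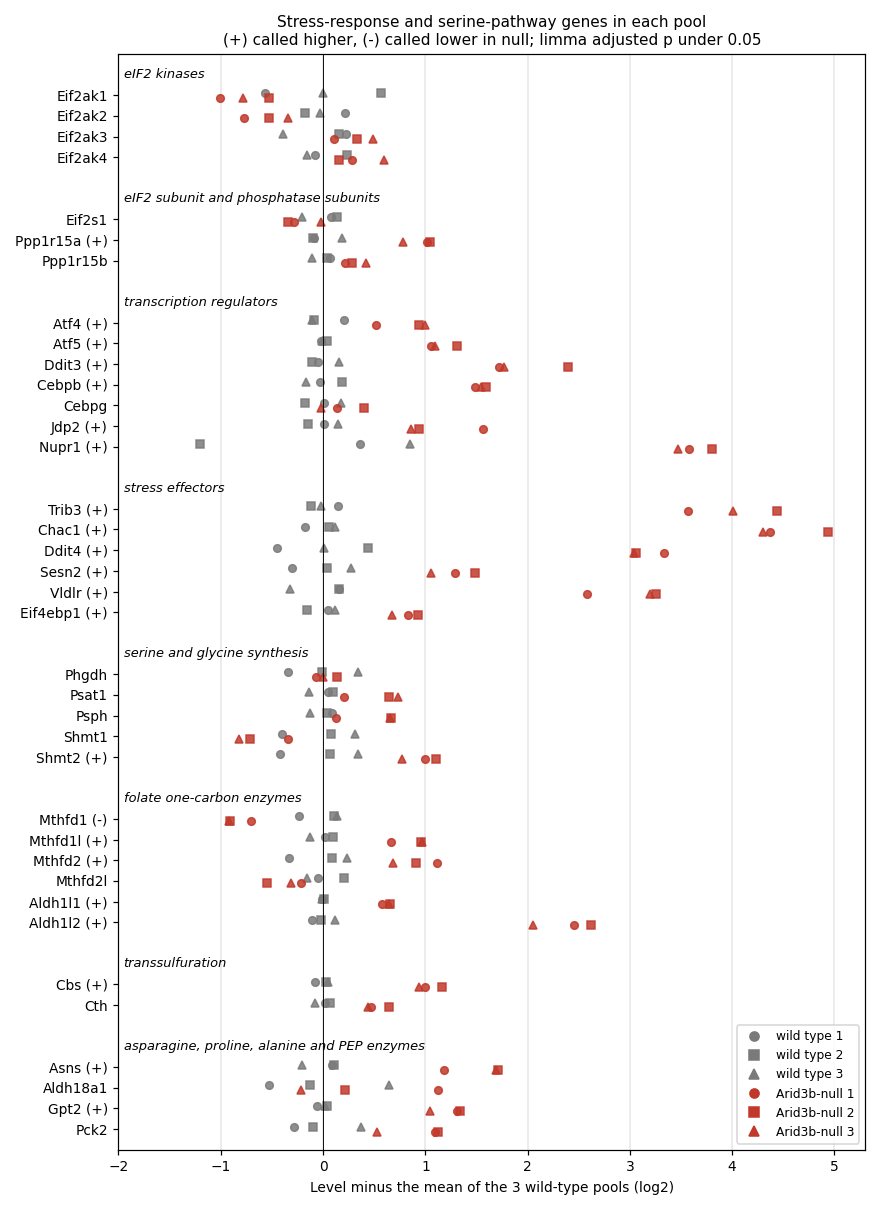
Level of each of the 37 measured genes in each of the 6 pools, as the log2 difference from the mean of the 3 wild-type pools, ordered by role. Grey marks are wild-type pools and red marks are null pools, with 1 shape per slide. The stress effectors lie furthest to the right, with a median change of 3.08, while the changes of the 4 eIF2 kinases lie between -0.78 and 0.35.

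The group named stress effectors here, which also holds the lipoprotein receptor Vldlr, changed most: all 6 were called higher, by 0.81 to 4.54 (log2). Chac1, which breaks down glutathione, stood at -2.49, -2.25 and -2.19 in wild type and at 2.06, 2.63 and 1.99 in null. The groups did not overlap, and the change was 4.54 (SE 0.21), a 23.2-fold higher level (limma adjusted p = 0.000177). Trib3, a pseudokinase that restrains ATF4, stood at -0.94, -1.21 and -1.11 in wild type and at 2.48, 3.35 and 2.92 in null. It was 16-fold higher (log2 change 4, SE 0.24, limma adjusted p = 0.000309), with null pool 2 the highest and null pool 1 the lowest of the 3.

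Ddit4, an inhibitor of the growth kinase complex mTORC1 that also responds to low oxygen, stood at 2.63, 3.52 and 3.09 in wild type and at 6.41, 6.14 and 6.12 in null. It was 8.81-fold higher (log2 change 3.14, SE 0.24, limma adjusted p = 0.000904). Vldlr, the very-low-density lipoprotein receptor, stood at -0.12, -0.12 and -0.6 in wild type and at 2.3, 2.98 and 2.92 in null, 8.06-fold higher (log2 change 3.01, SE 0.24, limma adjusted p = 0.000978). Its second probe gave 2.58, also with no overlap between the groups.

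Sesn2, a further brake on mTORC1, stood at 0.42, 0.76 and 0.99 in wild type and at 2.01, 2.21 and 1.78 in null (change 1.28, SE 0.2, limma adjusted p = 0.011). Eif4ebp1, which blocks cap-dependent translation, stood at 4.6, 4.39 and 4.67 in wild type and at 5.38, 5.48 and 5.22 in null. Its groups did not overlap either, with a change of 0.81 (SE 0.16, limma adjusted p = 0.0234), but it was called in none of the 6 fits that left out 1 pool. The adjusted p ran from 0.0508 without wild-type pool 3 to 0.0969 without null pool 2, and was 0.143 with slide as a block.

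Among the transcription regulators, 6 of 7 were called higher, with a median change of 1.15 (log2). Atf4 stood at 5.06, 4.77 and 4.75 in wild type and at 5.38, 5.8 and 5.86 in null, and null pool 1 came closest to wild type. Its change was 0.82 (SE 0.19, limma adjusted p = 0.0385). This call was among the least steady of the list, since it stayed only without null pool 1, reached an adjusted p of 0.134 without null pool 2, and was lost with slide as a block (adjusted p = 0.165). A second Atf4 probe gave -0.86, -0.74 and 0.03 in wild type and -0.46, 0.21 and -0.34 in null, a change of 0.33 (SE 0.31) with overlapping groups. The mean of both probes gave 0.57 (limma adjusted p = 0.108), and the authors' table, which holds the second probe and not the first, gave 0.3 (0.551).

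Ddit3, the stress regulator CHOP, stood at -1.97, -2.03 and -1.76 in wild type and at -0.2, 0.47 and -0.15 in null. It was 3.89-fold higher (log2 change 1.96, SE 0.22, limma adjusted p = 0.00313). Cebpb, a C/EBP-family regulator, stood at -1.01, -0.79 and -1.15 in wild type and at 0.51, 0.61 and 0.56 in null, and its null pools lay closer together than those of any other regulator. Its change was 1.54 (SE 0.16, limma adjusted p = 0.00237).

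Atf5, a relative of ATF4 under similar translational control, stood at 2.81, 2.87 and 2.82 in wild type and at 3.89, 4.14 and 3.92 in null (change 1.15, SE 0.15, limma adjusted p = 0.00545). Jdp2, a repressor of the AP-1 family, stood at 0.19, 0.03 and 0.33 in wild type and at 1.74, 1.12 and 1.04 in null (change 1.12, SE 0.22, limma adjusted p = 0.0232), and its call was lost with slide as a block (adjusted p = 0.0716). It was also lost without null pool 2 or any 1 wild-type pool, with an adjusted p of 0.0553 to 0.0916. Null pool 1 was the highest for Jdp2, whereas null pool 2 was the highest for Atf5 and Ddit3.

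Nupr1, a small stress-induced chromatin protein, was dim in wild type at -5.41, -6.97 and -4.92, where 2 of the 3 arrays placed it well above background. In null it stood at -2.19, -1.97 and -2.3, and the change was 3.61 (SE 0.48, limma adjusted p = 0.00581). Its size depended on the handling of background, since the change was 1.84 with normexp correction, and it was 3.01 without wild-type pool 2. Cebpg, a partner of ATF4 in binding DNA, was not called, with a change of 0.17 (SE 0.18, limma adjusted p = 0.593) and overlapping groups.

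None of the 4 eIF2 kinases was called, and their median change was -0.12 (log2). At an unadjusted p under 0.05 in limma, 0 were higher and 2 lower. The share of all entries at that unadjusted threshold was not counted. Unadjusted counts here and below therefore cannot be read as a lean of a list in either direction. Their activity is set by phosphorylation, which an mRNA array does not measure. Eif2ak1, the haem-regulated kinase HRI, stood at -1.91, -0.77 and -1.34 in wild type and at -2.35, -1.87 and -2.12 in null, with overlapping groups and a change of -0.78 (95% interval -1.47 to -0.08, limma adjusted p = 0.146). Eif2ak2, the kinase PKR that senses double-stranded RNA, stood at -1.27, -1.66 and -1.51 in wild type and at -2.25, -2.01 and -1.82 in null. Its groups did not overlap, with a change of -0.55 (SE 0.19, limma adjusted p = 0.109), and it was the added call under median centring. Eif2ak3, the endoplasmic reticulum kinase PERK, and Eif2ak4, the amino acid sensor GCN2, overlapped between groups, with changes of 0.31 (SE 0.21) and 0.35 (SE 0.19).

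Ppp1r15a, the inducible subunit that directs a phosphatase to eIF2, stood at 1.19, 1.18 and 1.47 in wild type and at 2.3, 2.33 and 2.06 in null. Its change was 0.95 (SE 0.17, limma adjusted p = 0.0157), lost with slide as a block (adjusted p = 0.0979) and on leaving out pool 2 of the wild type (0.0706) or of the null (0.0704). Its constitutive counterpart Ppp1r15b was not called, at -1.85, -1.88 and -2.03 in wild type and -1.71, -1.64 and -1.5 in null (change 0.31, SE 0.15, limma adjusted p = 0.246). Eif2s1, the eIF2 subunit that is phosphorylated, overlapped between groups, with a change of -0.21 (SE 0.17).

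**Figure D2:**
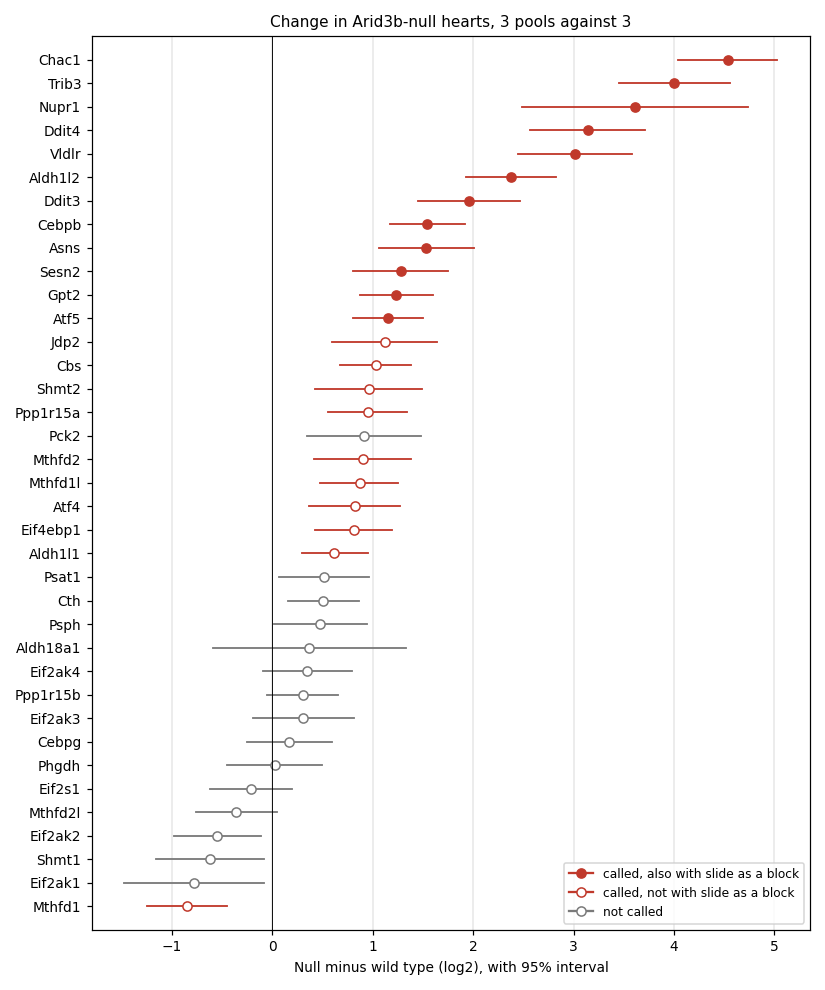
Log2 change (null minus wild type) of each of the 37 measured genes with its 95% interval, 3 pools against 3, in order of size. Red marks are genes called in limma, filled where the call was kept with slide as a block; 12 are filled, from Atf5 at 1.15 up to Chac1 at 4.54.

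The enzymes of serine synthesis proper were not called. Phgdh, which commits a glycolytic intermediate to serine, stood at 3.63, 3.96 and 4.31 in wild type and at 3.9, 4.11 and 3.97 in null. The groups overlapped throughout, with a change of 0.03 (95% interval -0.45 to 0.5, limma adjusted p = 0.951), and the second Phgdh probe gave -0.04. Its sign was turned by other settings, among them median centring (-0.11). Psat1 and Psph, the next enzymes of the route, stood higher in all null pools without passing the threshold, with changes of 0.52 (SE 0.19, limma adjusted p = 0.132) and 0.48 (SE 0.2, limma adjusted p = 0.168). Second probes of Psat1 (0.38) and Psph (0.21) overlapped between groups. The name of the list includes serine synthesis, but none of the 3 enzymes from Phgdh to Psph passed the test. With array weights Psat1 was called (change 0.58, limma adjusted p = 0.0476) and Psph came near (0.0519).

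Shmt2, the mitochondrial enzyme that turns serine into glycine, stood at 1.94, 2.43 and 2.7 in wild type and at 3.36, 3.46 and 3.13 in null. Its change was 0.96 (SE 0.23, limma adjusted p = 0.0393), the called gene nearest the threshold, and the call was lost with slide as a block (adjusted p = 0.122). It stayed only without wild-type pool 3, and the adjusted p reached 0.131 without null pool 2. Shmt1, the cytosolic form, stood at -0.03, 0.45 and 0.68 in wild type and at 0.03, -0.34 and -0.45 in null, not called and with overlapping groups (change -0.62, SE 0.23, limma adjusted p = 0.14). A second Shmt1 probe gave -0.51, with every null pool below wild type.

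Among the 6 folate one-carbon enzymes, 4 were called higher and 1 lower. Aldh1l2, the mitochondrial enzyme that oxidises formyl-folate, stood at -4.29, -4.2 and -4.06 in wild type and at -1.73, -1.56 and -2.13 in null. It was 5.2-fold higher (log2 change 2.38, SE 0.19, limma adjusted p = 0.000984), and the change was 1.69 with normexp correction. Its cytosolic relative Aldh1l1 stood at -3.01, -2.99 and -3.01 in wild type and at -2.42, -2.35 and -2.36 in null, a smaller change of 0.62 (SE 0.14, limma adjusted p = 0.0333). The Aldh1l1 call was lost in 11 of 17 other settings, among them all 6 that left out 1 pool (adjusted p 0.0605 without null pool 1 to 0.126 without null pool 2).

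Mthfd2, a mitochondrial dehydrogenase of folate, stood at 0.71, 1.13 and 1.27 in wild type and at 2.15, 1.95 and 1.72 in null (change 0.9, SE 0.21, limma adjusted p = 0.0358). Mthfd1l, which releases formate in the mitochondria, stood at 2.57, 2.65 and 2.42 in wild type and at 3.21, 3.51 and 3.52 in null (change 0.87, SE 0.16, limma adjusted p = 0.0199), and its second probe gave 0.91. Mthfd1, the cytosolic enzyme that takes the formate up, was the only listed gene called lower, at 2.26, 2.61 and 2.64 in wild type and 1.8, 1.59 and 1.58 in null. It was 1.8-fold lower (log2 change -0.85, SE 0.17, limma adjusted p = 0.0248). With slide as a block the calls of Aldh1l1, Mthfd2, Mthfd1l and Mthfd1 were lost, at adjusted p of 0.225, 0.142, 0.114 and 0.135. Leaving out 1 pool ended the Mthfd2 call each time (adjusted p 0.0595 without wild-type pool 3 to 0.112 without null pool 2). The Mthfd1l and Mthfd1 calls ended without pool 2 or pool 3 of either group, at up to 0.0837 without null pool 2 and 0.096 without wild-type pool 2. Mthfd2l, a second mitochondrial dehydrogenase, was not called, with a change of -0.36 (SE 0.17, limma adjusted p = 0.239).

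Taking the difference between 2 genes on the same array removes the scaling of the array. These pairs were chosen after their values were seen and carry no test. Relative to the wild-type mean, Shmt2 over Shmt1 was 1.34, 1.82 and 1.58 (log2) in the null pools, 2.99-fold on average. Mthfd1l over Mthfd1 was 1.37, 1.88 and 1.9 (3.29-fold), Mthfd2 over Mthfd1 was 1.82, 1.82 and 1.61 (3.37-fold), and Aldh1l2 over Aldh1l1 was 1.88, 1.98 and 1.4 (3.37-fold). Mthfd2l over Mthfd1, added because Mthfd2l is the remaining mitochondrial enzyme of the list, was far smaller at 0.49, 0.37 and 0.62 (1.41-fold), and Mthfd2l itself stood lower in null. In all 5 pairs the null pools lay above the wild-type pools, which spread by an SD of 0.03 to 0.26. Of the 5, 3 share Mthfd1, which was called lower.

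**Figure D3:**
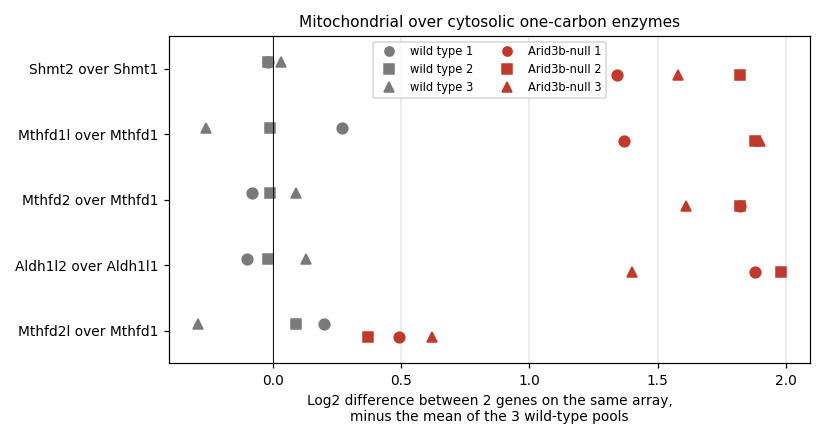
Log2 difference between a mitochondrial and a cytosolic folate enzyme on the same array, in each of the 6 pools, minus the mean of the 3 wild-type pools. Grey marks are wild-type pools, between -0.29 and 0.27, and red marks are null pools, between 1.34 and 1.98 in the first 4 pairs and between 0.37 and 0.62 for Mthfd2l over Mthfd1.

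In transsulfuration, which turns homocysteine and serine into cysteine, Cbs stood at -1.99, -1.88 and -1.86 in wild type and at -0.91, -0.75 and -0.97 in null. Its change was 1.03 (SE 0.15, limma adjusted p = 0.00775), with an adjusted p of 0.066 with slide as a block. Cth, the second enzyme, stood at -1.2, -1.15 and -1.3 in wild type and at -0.75, -0.58 and -0.78 in null. Its groups did not overlap and a second probe gave 0.55, but the change of 0.51 (SE 0.15) was not called (limma adjusted p = 0.0734).

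Of the enzymes that make asparagine, proline, alanine and phosphoenolpyruvate, 2 of the 4 measured were called higher. Asns, the asparagine synthetase and a classic ATF4 target, stood at 3.34, 3.36 and 3.04 in wild type and at 4.43, 4.96 and 4.94 in null (change 1.53, SE 0.2, limma adjusted p = 0.00581). Gpt2, a mitochondrial alanine transaminase, stood at -0.71, -0.61 and -0.63 in wild type and at 0.66, 0.69 and 0.4 in null (change 1.23, SE 0.16, limma adjusted p = 0.00497). The groups did not overlap for either gene.

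Pck2, the mitochondrial maker of phosphoenolpyruvate, lay just outside the threshold (limma adjusted p = 0.0557). It stood at -4.73, -4.55 and -4.08 in wild type and at -3.36, -3.33 and -3.92 in null, with a change of 0.91 (SE 0.24) and no overlap. Aldh18a1, which starts proline synthesis, varied most within the null group, at 1.09, 0.18 and -0.25 against -0.56, -0.16 and 0.61 in wild type. Its change of 0.37 (SE 0.41, limma adjusted p = 0.612) differed in sign between slides, at 1.65, 0.33 and -0.87.

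The order of the null pools was uneven over the 21 genes called higher. Null pool 2 was the highest of the 3 in 16 of them, null pool 1 in 3 and null pool 3 in 2. Null pool 2 was the lowest in none of the 21, null pool 3 in 12 and null pool 1 in 9. The order was not counted over the other entries called higher, so it is not known to be particular to the list. The median distance above the wild-type mean was 1.28, 1.34 and 1.06 (log2) in null pools 1, 2 and 3; these genes were called on the same pools, so this describes them only. Leaving out 1 pool left 13 to 17 listed genes called higher, with 13 when either wild-type pool 2 or null pool 2 was left out. The share of all entries called higher fell as well, from 6.6% with all pools to 2.71% without wild-type pool 2. It was also 2.71% without null pool 2, and lay between 3.49% and 5.4% without any other pool. In all 6 such fits 13 of the 21 calls were kept, those of the 12 named above and Cbs.

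Other genes of the pathway were counted from lists drawn up with the same knowledge. Among 31 measured further ATF4 targets, 14 were called higher and 0 lower, with a median change of 0.53, and 7 were called with slide as a block. By class these were 5 of 8 amino acid carriers, all 4 secreted factors, 2 of 9 tRNA synthetases (Sars and Cars) and 3 of 10 other genes (Atf3, Ero1a and Lonp1). The 4 with the smallest p were Slc7a3, a carrier of cationic amino acids (change 4.43, limma adjusted p = 0.000158), Stc2, a secreted glycoprotein (3.82, 0.000177), Adm2, a peptide hormone (4.34, 0.000984) and Vegfa, the endothelial growth factor (2.09, 0.00147). Slc7a3 stood at -3.66, -3.38 and -3.43 in wild type and at 0.75, 1.18 and 0.87 in null, with no overlap. Over the other settings 6 to 15 were called higher, and leaving out wild-type pools 1, 2 and 3 in turn gave 8, 6 and 9, while leaving out null pool 2 gave 7.

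The other arms of the unfolded protein response gave no call higher in limma. Of 19 genes of the ATF6 and IRE1 arms, 0 were called higher and 2 lower, with a median change of -0.2, and at an unadjusted p under 0.05 the counts were 0 and 4. The 2 were the chaperones Creld2 (change -0.66, limma adjusted p = 0.0434) and Dnajb11 (-0.64, 0.0448), and neither call was kept with slide as a block or when any 1 pool was left out (adjusted p up to 0.159 and 0.156, both without null pool 2). The 13 subunits and partners of eIF2, eIF2B and the kinases gave no call in limma, with a median of -0.25 and with 0 higher and 4 lower at an unadjusted p under 0.05, and Eif2b4 (change -0.56, limma adjusted p = 0.0673) and Eif2b2 (-0.76, 0.0684) came nearest. Under other settings up to 3 of them were called lower and none higher.

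Other enzymes of the same metabolism gave no call higher either. Among 20 further folate and glycine genes, 0 were called higher and 2 lower, with a median of -0.38, and at an unadjusted p under 0.05 the counts were 0 and 8. Over the other settings 0 to 7 were called lower, with 0 without pool 2 of either group. The 2 were Tyms, the thymidylate synthase (change -0.89, limma adjusted p = 0.0154), and Gnmt, a glycine methyltransferase (-0.94, 0.0356). The 13 measured further proline and amino acid enzymes gave no call (median -0.21; 1 higher and 3 lower at an unadjusted p under 0.05), with Aldh4a1 (-0.52, limma adjusted p = 0.0856) nearest. Among 12 paralogues of the listed genes, 0 were called higher and 2 lower: Lrp8, a relative of Vldlr (change -1.18, limma adjusted p = 0.00874), and Trib2, a relative of Trib3 (-0.66, 0.0437). At an unadjusted p under 0.05, 1 of the 12 was higher and 4 lower. With slide as a block these 3 lists gave no call, and Trib2 was also lost when any 1 pool was left out (adjusted p up to 0.139, without null pool 3).

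**Figure D4:**
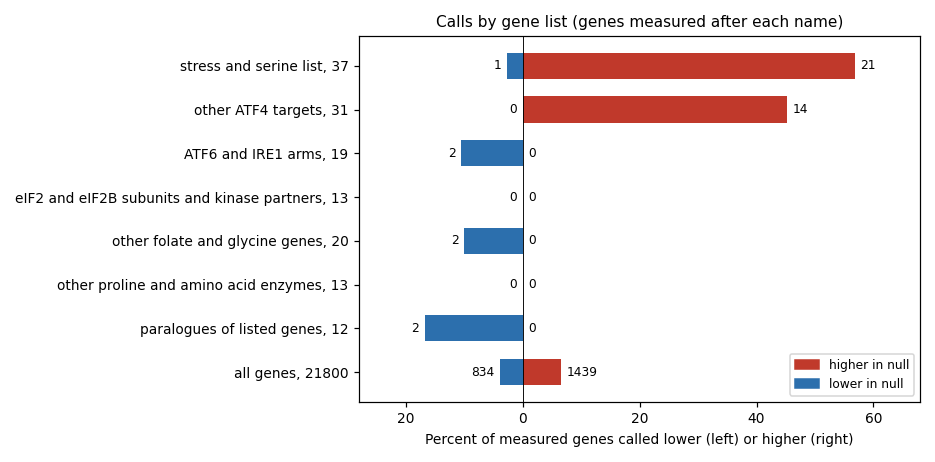
Percent of measured genes called higher (red, right) or lower (blue, left) in null hearts for the stress and serine list, 6 lists of related genes and all entries tested. The numbers at the bars are counts; 21 of 37 listed genes and 14 of 31 other ATF4 targets were called higher, against 6.6% of all entries.

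Promoter letters can be set beside the calls as a description, over tested genes with a window in the table. Of the 19 listed genes with a window that were called higher, 6 held TGATGNAA (31.6%), and of the 13 measured but not called, 1 did (Pck2, 7.69%). Outside the list the letters were in 34 of 800 genes called higher (4.25%) and in 299 of 10755 not called (2.78%). Counted the other way, 34 of 347 genes outside the list with the letters were called higher (9.8%), against 766 of 11694 without them (6.55%). The shares called lower were 4.03% with the letters and 4.04% without. Listed genes called higher without a match in their windows were Ppp1r15a, Atf4, Atf5, Ddit3, Cebpb, Ddit4, Sesn2, Shmt2, Mthfd1l, Mthfd2, Aldh1l1, Cbs and Gpt2.

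Markers of other tissues and of low oxygen were summed in each pool. Summed levels of 9 cardiomyocyte markers overlapped, from 10.46 to 10.67 in wild type and from 10.52 to 10.86 in null, with 1 of 9 called higher (Nppa, change 1.27). Of 10 hypoxia targets 9 were called higher, and the sum of the 10 ran from 8.45 to 8.85 in wild type and from 9.48 to 9.58 in null. A sum adds linear levels, so the brightest genes weigh most in it. The median change of the 10 was 2.41 (log2), from 0.55 in Ldha, which was not called, to 5 in Ndufa4l2. Ddit4, Vegfa and Stc2, which are known to respond to hypoxia as well as to ATF4, were also called higher. Whether their levels followed those of the hypoxia targets from pool to pool was not tested.

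All 6 megakaryocyte and platelet markers were called higher, with sums from 1.35 to 2.36 in wild type and from 5.18 to 5.9 in null. Of 6 measured hepatic and visceral endoderm markers 3 were called higher (sums 0.08 to 0.51 and 1.77 to 2.29). None of 7 primitive erythroid markers was called (8.12 to 9.19 and 9.56 to 10.21; 6 were higher at an unadjusted p under 0.05), and none of 4 macrophage markers (-0.35 to 1.56 and -0.4 to 2.01; 1 was higher at an unadjusted p under 0.05). Of 5 measured trophoblast markers 1 was called, Ascl2 (change 3.62). The sum over the 4 with a value on every array was -1.7 to -1.53 in wild type and 0.19, 0.75 and 4.84 in null. In that sum null pool 3 stood apart through the placental hormone Prl3d1 (-3.21, -0.97 and 4.78 in the null pools). The marker left out of the sum, Gcm1, stood at 3.22, 1.7 and 3.45 in wild type and at 4.62 and 4.75 in null pools 2 and 3. Gcm1 had no value in null pool 1 and was not called (limma adjusted p = 0.069).

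**Figure D5:**
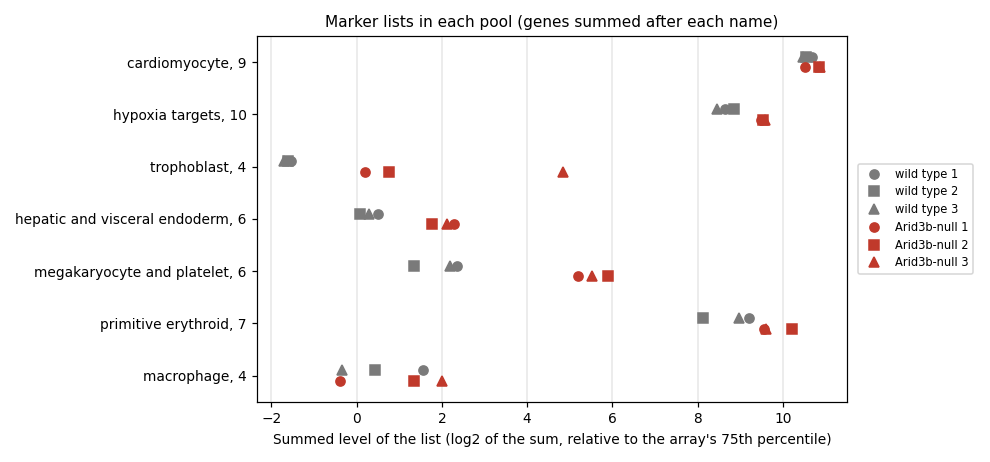
Summed level of each marker list in each of the 6 pools, in log2 relative to the 75th percentile of the array, with the number of genes summed after each name. Grey marks are wild-type pools and red marks are null pools. The cardiomyocyte and macrophage sums overlap between groups, and the sums of all the other lists do not.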

How the data were processed

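Agilent scanner files of 6 arrays (design 026655, extracted with Feature Extraction 10.7.3.1, per the file headers) gave the deposited intensity of each spot, background-subtracted by the scanner software and not scaled between arrays, with the software's well-above-background and outlier flags as other columns. The authors also deposited a table of log2 values for 24158 probes, with a median of 6.77 in every column and a correlation of 0.9994 to 1 with the scanner values, which served as an alternative; its columns share a median, and no source used here says how they were centred.

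Here log2 intensities were set relative to each array's 75th percentile over spots that were neither controls nor outliers, spots of a probe were averaged, and probes well above background on at least 3 of 6 arrays were kept (26848 of 39429). Symbols came from RefSeq accessions (26424 probes matched, 13005 did not), and the brightest kept probe stood for a gene; 6567 of the 21800 entries tested had no symbol. limma 3.58.1 in R 4.3.3 (lmFit, eBayes, two-sided, Benjamini-Hochberg over all entries, threshold 0.05) compared the groups, after the fit was tested on simulated data. A permutation of 3 pools against 3 cannot go below 0.1, so single genes rest on this model. With 3 arrays per group their number limits the precision. Whether pools share litters is unknown. The p-values take pools as the units, and eBayes draws the variance of each gene towards a value shared by all entries.

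All members of the list are named by role, and from each related list the called genes with the 4 smallest p, or the 2 smallest p where none was called. One gene that this rule would name is not reported here. The members and all lists were chosen with earlier results of these data known. Slide barcodes in the headers match the replicate numbers. Deviations from the group means correlated at -0.41, -0.09 and -0.41 between pools of the same number. The numbers were therefore not taken to pair the pools, and slide was used as a block only as a batch. Between wild-type pool 3 and null pool 1, which lay on different slides, the correlation was 0.49. Promoter windows and sequences are RefSeq's on build GRCm38.p6. The settings varied were scaling, background correction, the filter on dim probes, outlier spots, the choice of probe, the variance prior, array weights, the slide block, the authors' table and each array left out.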

Additional observations from a re-analysis of the deposited data

How the results depend on the processing

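Each of 17 alternative settings was applied to the counts and to every listed gene. Of the 21 genes called higher, 12 kept the call and direction in all the settings that tested them (Nupr1 was not tested where all 6 arrays had to be above background), and 9 lost it in at least 1. The count of listed genes called higher was 12 with slide as the replicate block, 14 when dim probes were kept, 24 under array weights and 13 to 17 with 1 array left out. The count called lower was 2 under median centring, 0 when dim probes were kept, 2 under array weights, 0 with the replicate block, and 0 to 1 with 1 array left out. Over all entries, 1037 were called when dim probes were kept (32530 tested), 3547 under array weights, 731 with the replicate block, and 836 to 1758 with 1 array left out, where fewer arrays enter the fit. What moved these counts was not tested in any of the settings. The sign of Phgdh was reversed under median centring (-0.11), with normexp correction (-0.11) and with the mean of its probes (-0.01), and ran from -0.14 to 0.2 with 1 array left out; that of Aldh18a1 ran from -0.01 to 0.7. Neither gene was called in any of these. Dim probes limit what can be said of size: normexp correction lowered the changes of Nupr1 to 1.84 and of Aldh1l2 to 1.69, both still called.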
